A study of Drosophila melanogaster with 3 samples.

Results

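The chemoreceptor genes of Drosophila melanogaster were described in a map of the binding of the nuclear receptor Hr51. They were taken as the protein-coding genes of the Release 6 annotation whose symbol is Or, Gr or Ir followed by a digit. This gave 179 of 13945 protein-coding genes, of which 59 were Or, 60 were Gr and 60 were Ir genes. A further 7 pseudogenes had such symbols and were kept apart. Orco, the common partner of the odorant receptors, has no digit in its symbol and was not a member.

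The data came from chromatin immunoprecipitation and sequencing (ChIP-seq) of whole embryos of mixed sex, 0 to 24 h old, in 3 biological replicates of 1 group. All were of the Dhr51-GFP strain, a transgenic line with GFP joined to the C terminus of Hr51, and no sample lacked the fusion. The labels describe precipitation with an antibody to GFP, while their antibody field reads Hr51. No control library was among the samples, and what drives the transgene is not given in the sources used here. Because whole embryos were used, binding in few cells and weak binding in many cells cannot be told apart.

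Or genes encode odorant receptors of olfactory neurons, each of which works together with Orco. Gr genes encode gustatory receptors for sugars, bitter compounds and CO2, and Ir genes encode ionotropic receptors, relatives of the glutamate-gated channels, that pair with the coreceptors Ir8a, Ir25a or Ir76b. Most are used in small sets of sensory neurons of the larva or adult. Hr51, also called unfulfilled, belongs to the NR2E nuclear receptors and is known from the mushroom body, a learning centre of the brain.

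The authors deposited an optimal list of 3496 peaks that passed the irreproducible discovery rate (IDR) procedure, and 4 relaxed lists of 30000 peaks, of which 3 are of single replicates and 1 of their pooled reads. The relaxed lists hold peaks and background together. The IDR peaks were exactly the 3496 of highest signal in the pooled list, and their lowest −log10 q was 3.00, against 0.0686 in the pooled list. Peaks are ranked below by the authors' signal value, from 1 for the highest, within each list. A gene was counted as having a promoter peak when a peak summit, the point of highest signal, lay within 500 bp of the start of any of its transcripts. The peak was called the gene's own when no start of another gene was nearer to that summit. Read counts were not used here and the depth of the replicates is unknown.

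Sequence shows the setting of the receptor peaks described below. The interval between Gr63a, a subunit of the CO2 receptor, and its neighbour Lamtor4 carried the highest-ranked receptor peak of those shown. The windows within 50 bp of the pooled summits at Gr97a and Gr77a show peaks upstream of genes with no other start nearer. The window around the start of Gr68a holds the single match to TATCGATA among the receptor promoters. Of core promoter sequences, only this and GGTCACACT, the element of the factor M1BP, were sought. All are given 5′ to 3′ on the strand of the receptor gene, from the RefSeq copy of Release 6. Capitals mark AAGTCA at Gr63a, the core letters bound by nuclear receptors of the NR2E group, TTAAAA at Gr97a, and TATCGATA at Gr68a, the element bound by the factors DREF and BEAF-32.
Gr63a to Lamtor4, chr3L:3896604-3896899, minus strand: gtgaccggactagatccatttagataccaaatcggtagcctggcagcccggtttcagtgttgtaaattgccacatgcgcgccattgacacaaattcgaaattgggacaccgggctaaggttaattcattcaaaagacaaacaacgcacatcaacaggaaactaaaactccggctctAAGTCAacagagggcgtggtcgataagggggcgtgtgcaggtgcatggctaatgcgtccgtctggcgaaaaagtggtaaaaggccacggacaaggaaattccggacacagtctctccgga
Gr97a summit window, chr3R:26966584-26966684, minus strand: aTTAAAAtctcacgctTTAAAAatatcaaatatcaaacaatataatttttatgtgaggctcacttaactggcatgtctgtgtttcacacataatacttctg
Gr77a summit window, chr3L:20739560-20739660, minus strand: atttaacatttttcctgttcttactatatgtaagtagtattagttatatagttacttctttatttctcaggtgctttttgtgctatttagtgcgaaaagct
Gr68a start, chr3L:11751225-11751324, plus strand: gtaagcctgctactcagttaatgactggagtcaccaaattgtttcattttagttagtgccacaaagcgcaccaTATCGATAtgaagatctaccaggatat
In the Gr63a interval the pooled summit is at position 77 and AAGTCA begins at position 177. The last A of the TATCGATA at Gr68a is the annotated transcript start, which is also the initial coding base of the gene.

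Receptor promoters held almost no peaks of the IDR list. A single receptor gene, Ir60e, had an IDR summit within 500 bp of a start, which is 0.559% of 179 genes (exact 95% Clopper-Pearson interval 0.0141 to 3.07%). Over all protein-coding genes the share was 19.1%, or 2669 genes. None of 59 Or genes and none of 60 Gr genes was called, with upper limits of the exact interval of 6.06% and 5.96%. Intervals and limits cover counting error only, and neighbouring genes of a cluster are not independent.

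The peak at Ir60e was nearer to another gene. Its summit in the IDR list, at rank 1960 with a signal of 110 and a −log10 q of 3.81, lay 275 bp upstream of the start of Ir60e (FBgn0035019, 2R 24529554 to 24531272, minus strand). It lay 47 bp from the start of CG13585 (FBgn0035020, 2R 24531594 to 24533391, plus strand), which is transcribed in the opposite direction from a start 322 bp away. In replicates 1, 2 and 3 the peak ranked 1993, 2459 and 2335, and its summit was 294, 303 and 289 bp from Ir60e and 28, 19 and 33 bp from CG13585. All 3 replicates therefore placed it at the same end of the interval. No receptor gene had an IDR peak of its own, whereas 13.9% of all protein-coding genes did.

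Each replicate gave the same picture among its 3496 peaks of highest signal. The number of receptor genes with a promoter peak there was 1, 1 and 1, and it was Ir60e each time. Of all protein-coding genes, 19.3%, 18.7% and 18.3% had such a peak in replicates 1, 2 and 3. No receptor had a peak of its own in any of these 3 sets.

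The pooled relaxed list, which includes background, held promoter summits for 11 receptor genes, or 6.15% (exact 95% interval 3.11 to 10.7%). Of all protein-coding genes 54.2% had one, and of the 13766 that are no receptor 54.8%. The 11 were 1 Or gene (1.69%), 6 Gr genes (10%) and 4 Ir genes (6.67%). Of these, 7 genes (3.91%) had a peak of their own, against 46.2% of all protein-coding genes. For the other 4 of the 11 (36.4%) another gene's start was nearer, which was so for 14.8% of all called genes. When a pooled peak also had to have a summit within 150 bp in both of the remaining replicates, 3, 2 and 3 receptors were left without replicates 1, 2 and 3, and 34.1%, 36.6% and 35.9% of all genes. The receptors with a peak of their own were then 1, 0 and 1, against 26.7%, 28.9% and 28.1% of all genes.

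The replicate relaxed lists gave 20, 18 and 9 receptor genes with a promoter peak in replicates 1, 2 and 3 (8.75% ± 3.27, SD, n = 3). The shares were 11.2%, 10.1% and 5.03%, against 54.4%, 50.8% and 52.6% of all protein-coding genes (52.6% ± 1.75, SD, n = 3). Or10a and Gr10a have the same annotated start and were called from the same summit in replicate 1, as were Gr64b and Gr64c in replicate 2. The receptor and background shares did not overlap in any replicate, and replicate 3 had the fewest receptors. By family, the Gr genes had 10, 12 and 5, the Ir genes 6, 4 and 2, and the Or genes 4, 2 and 2. Gr genes were the highest of the 3 families in every replicate and in the pooled list, and Ir and Or genes were equal in replicate 3. With 3 replicates an exact sign test cannot give a two-sided p below 0.25, and none is given.

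**Figure D1:**
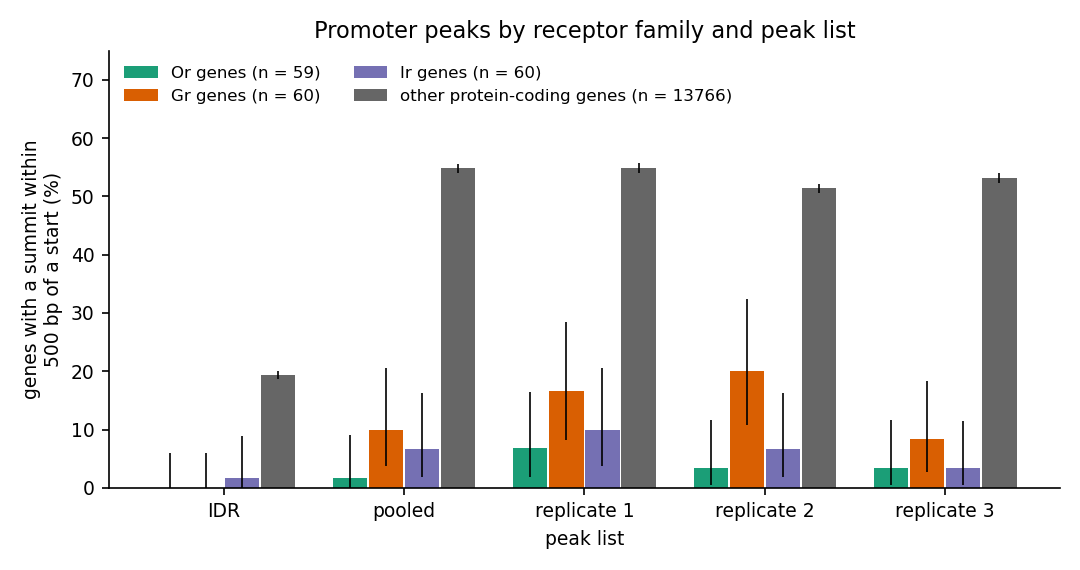
Share of genes with a peak summit within 500 bp of a transcript start (y axis, %) in the IDR list, the pooled relaxed list and the relaxed list of each replicate (x axis), for Or, Gr, Ir and all other protein-coding genes. Lines are exact 95% intervals, which cover counting error only; every receptor bar is at or below 20%, and the other genes are at 19.4% in the IDR list and at 51.4 to 54.9% in the relaxed lists.

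Receptor calls were seldom shared between replicates. A promoter summit was present in at least 1 replicate for 36 receptor genes, of which 28 were found in 1 replicate, 5 in 2 and 3 in all 3. The 36 thus had 8.33% in all 3 replicates and 77.8% in 1 only, whereas of all genes called in any replicate 54.6% were in all 3 and 24.0% in 1 only. The receptors in all 3 were Ir60e, Gr63a and Gr21a, and those in 2 were Gr28b, Gr39a, Gr39b, Ir25a and Or85f. These calls are by gene, and the summits need not match. Those of Or85f lay 484 bp inside the gene in replicate 1 and 185 bp inside in replicate 3, over 150 bp apart. Or85f, Gr39a and Gr39b, chosen after their values were seen, had no pooled promoter summit. For 143 receptors (79.9%) no replicate had a promoter summit, against 31.6% of all protein-coding genes.

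Of the 11 receptors with a pooled promoter peak 6 were Gr genes, and none of these had an IDR peak. Gr21a and Gr63a together form the CO2 receptor, and they were the gustatory receptors called in all 3 replicates. Their peaks differed in place. Gr63a, chosen after its values were seen (FBgn0035468, 3L 3894999 to 3896603, minus strand), had a pooled summit at rank 4713 with a signal of 63.0 and a −log10 q of 2.16. It lay 220 bp upstream of Gr63a and 77 bp from Lamtor4, which encodes a subunit of the Ragulator complex on lysosomes (FBgn0035469, 3L 3896900 to 3897498, plus strand). In replicates 1, 2 and 3 this peak ranked 5856, 6518 and 8547, and was 18, 48 and 111 bp from the start of Lamtor4. Lamtor4 was the nearer gene each time. The summits of replicates 2 and 3 lay in the bases printed above, and that of replicate 1 lay inside Lamtor4. Replicate 3 had another peak at rank 12817 that lay 114 bp inside Gr63a and was its own.

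Gr21a (FBgn0041250, 2L 780482 to 782885, plus strand) had a peak with no other gene near. Its pooled summit ranked 8864, with a signal of 42.3 and a −log10 q of 0.881, and lay 206 bp upstream of the start at 781276, inside the transcribed region of a longer transcript. The nearest start of another gene, CG13947, was 1897 bp away. Replicates 2 and 3 had it at ranks 4549 and 24802, with summits 204 and 193 bp from that start. Replicate 1 had a summit 3 bp from the start at rank 24437, too far from the pooled summit to be matched to it within 150 bp. The peak ranked high in replicate 2 only, where its −log10 q was 1.64.

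Gr97a (FBgn0041224, 3R 26965124 to 26966485, minus strand) had the highest-ranked pooled peak of its own, at 8597 with a signal of 43.1. Its summit was 149 bp upstream of Gr97a and 296 bp from CG5521. Replicate 1 alone had a promoter summit at Gr97a, at rank 20093, 345 bp from Gr97a and 100 bp from CG5521, so the neighbour was nearer. That summit was over 150 bp from the pooled one, so no replicate matched the pooled peak within 150 bp. Gr28b (FBgn0045495, 2L 7454826 to 7462247, minus strand), a gene with several alternative starts that is known for roles in warmth and light sensing, had a pooled summit at rank 10692. It lay 20 bp inside the start at 7460642, with a signal of 38.0. Replicates 1 and 2 had it at ranks 7715 and 12526, 21 and 51 bp from the same start, and replicate 3 had none. Gr39a, another gene of alternative starts, likewise had summits in replicates 1 and 2, at ranks 10187 and 6934, which were 38 and 25 bp upstream of the start at 21296314 on 2L.

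The remaining pooled peaks of Gr genes were low in the list. Gr68a (FBgn0041231, 3L 11751305 to 11752474, plus strand), known as a receptor of male foreleg neurons used in courtship, had a summit 459 bp inside the gene at rank 20514. It had a signal of 26.6 and a −log10 q of 0.199, and in replicate 3 alone a summit at rank 24952. Gr77a (FBgn0045474, 3L 20737569 to 20739430, minus strand) had a summit 180 bp upstream at rank 24162, and in replicate 1 alone at rank 28061.

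Among the Ir genes, the coreceptors did not share a pattern. Ir25a (FBgn0031634, 2L 4830846 to 4835300, minus strand) had a pooled summit of its own at rank 12001, with a signal of 35.7, 193 bp inside the start at 4835161. Replicate 2 had it at rank 8150, 159 bp inside that start. Replicate 1 had a summit at rank 26670, 9 bp upstream of the start and over 150 bp from the pooled summit, and replicate 3 had none. Ir8a (FBgn0052704, X 9232726 to 9236585, minus strand) had a pooled summit at rank 23940 in an intron, 384 bp inside the gene and 281 bp from the start of a non-coding RNA gene. Replicate 3 alone had it, at rank 13813. Ir76b (FBgn0036937, 3L 20108484 to 20111534, minus strand) had no promoter summit in any list. The nearest summit to its start was 891 bp away in the pooled list, 1492, 4459 and 882 bp in replicates 1, 2 and 3, and 71943 bp in the IDR list.

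The last pooled peak of the Ir family rested on a single replicate. Ir60b, chosen after its values were seen (FBgn0259185, 2R 24515685 to 24517458, plus strand), is known as a pharyngeal receptor that limits sugar feeding. Its replicate 1 summit ranked 3531, just outside the 3496 peaks of highest signal, but the pooled summit at the same base ranked 27395 and replicates 2 and 3 had none within 500 bp. That summit was 463 bp upstream of Ir60b and 98 bp from the start of Letm1, a protein of the inner mitochondrial membrane.

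The Or family had 1 pooled promoter peak, at Or63a (FBgn0035382, 3L 2961534 to 2963788, plus strand). Its summit lay 253 bp inside the gene at rank 26675, with a signal of 22.7 and a −log10 q of 0.0979. Replicate 1 had summits at ranks 20866 and 21559, 205 bp upstream and 270 bp inside, and the other replicates had none. The 7 Or genes with a summit in any replicate were Or1a, Or2a, Or10a, Or22c, Or23a, Or63a and Or85f. Their best rank was 12025, at Or85f in replicate 3, 185 bp inside the gene.

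**Figure D2:**
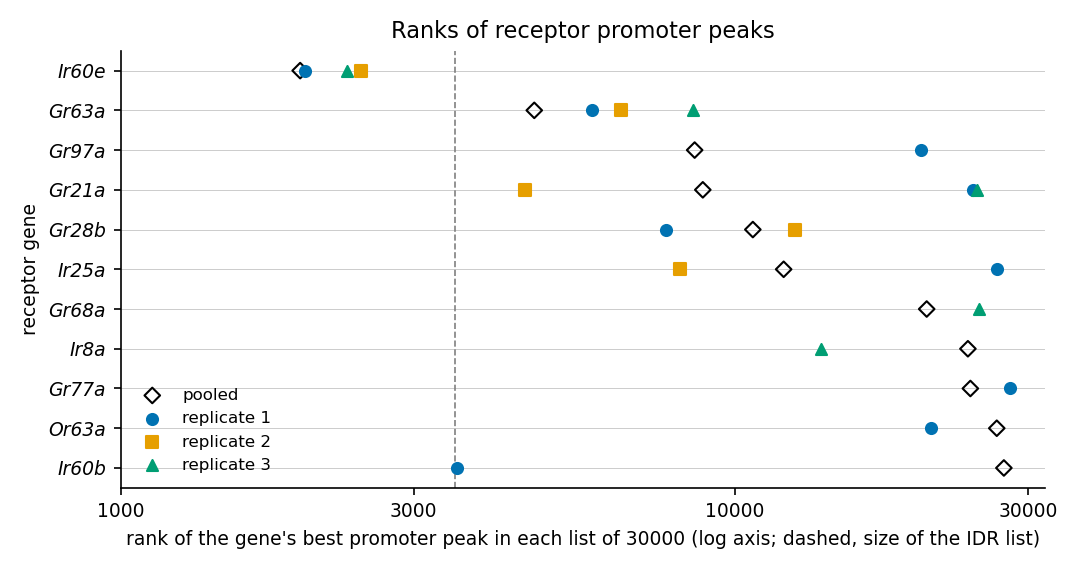
Rank of the best promoter peak of each of the 11 receptor genes in the pooled list (diamonds) and of the same genes in each replicate list (filled symbols), on a log axis from high signal at the left to low at the right. A missing symbol means no summit within 500 bp of a start, and the dashed line is the size of the IDR list, 3496; Ir60e is the only gene left of it, and Ir60b sits at the line in replicate 1 only.

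The receptor peaks stood low in the pooled list. Their best rank was 1960, the median 12001 and the lowest 27395 (n = 11), against a median of 5666 over the 7556 genes with a pooled promoter peak. Among the 10000 pooled peaks of highest signal, 4 receptors (2.23%) and 36.7% of all genes had a promoter peak, and among 15000, 6 receptors (3.35%) and 43.0%.

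**Figure D3:**
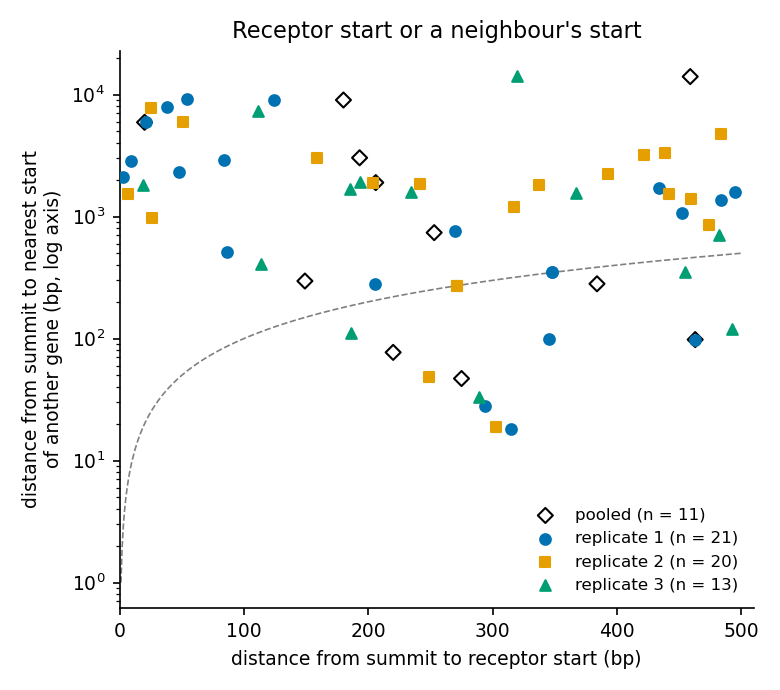
Each pair of a receptor gene and a promoter summit, 11 in the pooled list and 21, 20 and 13 in replicates 1, 2 and 3, by the distance of the summit from the receptor start (x axis, bp) and from the nearest start of another gene (y axis, bp, log axis). The dashed curve marks equal distances, and summits below it are nearer to the other gene; those under 50 bp on the y axis belong to Ir60e and Gr63a, at 18 to 48 bp from CG13585 or Lamtor4.

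Receptors with a close neighbour had a promoter peak more often than those without, and so did other genes. Another gene's start lay within 500 bp for 25 receptors (14.0%), and for 34.7% of the other protein-coding genes. Of these 25 receptors, 6 (24%) had a pooled promoter peak, and of the 154 with no such neighbour 5 (3.25%). The same shares in the other genes were 75.9% and 43.6%. Of the 6, 2 had a peak of their own (8% of 25), while all 5 of the others were their own, and for the remaining 4 the neighbour's start was the nearer. In the IDR list the values were 1 of 25 (4%) and 0 of 154 receptors, against 35.2% and 10.9% of the other genes. Receptors were thus below the other genes in both classes.

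The annotation of the receptor genes differed from that of other genes in a way that bears on where a start is placed. For 132 of the 179 receptors (73.7%) the most upstream annotated start was the initial coding base, with no 5′ untranslated sequence before it, which was so for 2.78% of the other protein-coding genes. Among genes of this kind a pooled promoter peak was found for 6 of 132 receptors (4.55%) and 54 of 383 other genes (14.1%), a smaller gap than over all genes. Among genes with annotated 5′ untranslated sequence the counts were 5 of 47 receptors (10.6%) and 56.0% of other genes. In the IDR list, 1 of 132 (0.758%) and 0 of 47 receptors were called, against 2.35% and 19.9% of other genes. The part of missing 5′ ends in the low counts was not tested.

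Receptors also had fewer starts. A single annotated start was given for 167 of them (93.3%), against 73.2% of other genes. Of those 167, 8 (4.79%) had a pooled promoter peak, against 47.1% of other genes with 1 start. Of the 12 with more, 3 (25%) had one, namely Gr21a, Gr28b and Ir25a, against 75.8%. Repeated sequence, which short reads cannot place, was rare: 3 receptors and 4.27% of all genes had over 10% of their promoter 31-mers elsewhere in the genome. Leaving such genes out gave 11 of 176 receptors (6.25%) and 56.0% of all genes with a pooled peak. The part of repeated sequence in the low counts was not tested.

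**Figure D4:**
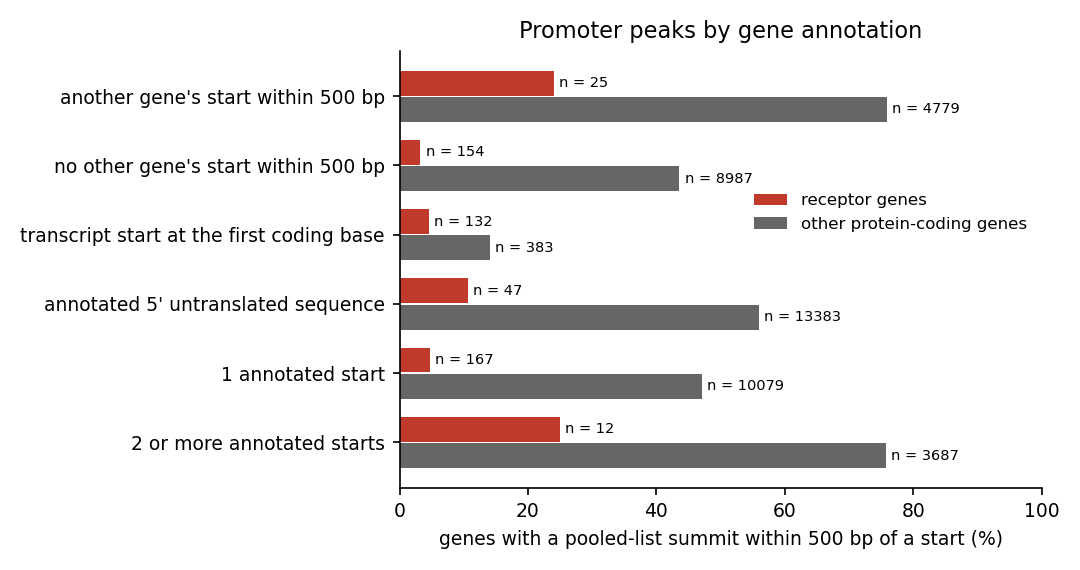
Share of genes with a pooled promoter peak (x axis, %) for receptor genes (red) and other protein-coding genes (grey) in classes of annotation, with the number of genes of each class beside its bar. Receptors are lower in all 6 classes. In percentage points the shares are nearest where transcripts start at the initial coding base, 4.55% against 14.1%, a class where both are low. By ratio, the classes with a neighbour within 500 bp (24% against 75.9%) and with 2 or more starts (25% against 75.8%) are about as near.

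Summits per kb around receptor starts were low. Within 500 bp these are the same summits as in the promoter counts above, given per kb, while the bins reach 5000 bp. Within 500 bp of receptor starts the pooled list had 0.0578 summits per kb (11 in 190 kb), and the replicates 0.0911 ± 0.0199 (SD, n = 3). The value was 0.579 per kb at the starts of other genes, with 0.555 ± 0.0297 in the replicates, and 0.224 per kb over the 6 chromosome arms used. Receptor starts were therefore below the average of the arms, while other starts were above it. Gr starts had 0.0894 per kb, Ir starts 0.0634 and Or starts 0.0164 in the pooled list. In 500-bp bins along the gene, the receptors had in the pooled list their lowest densities at the start, 0.0559 per kb upstream and 0.0447 downstream, where other genes had their highest, 0.846 and 0.475. The replicates had 0.123, 0.0894 and 0.0782 per kb in the upstream bin and 0.0782, 0.101 and 0.0559 in the downstream bin, and in replicates 1 and 2 the lowest bin lay further downstream, at 500 to 1000 bp and 1000 to 1500 bp. In the pooled list the highest receptor bin, 0.268 per kb, lay 2500 to 3000 bp upstream.

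**Figure D5:**
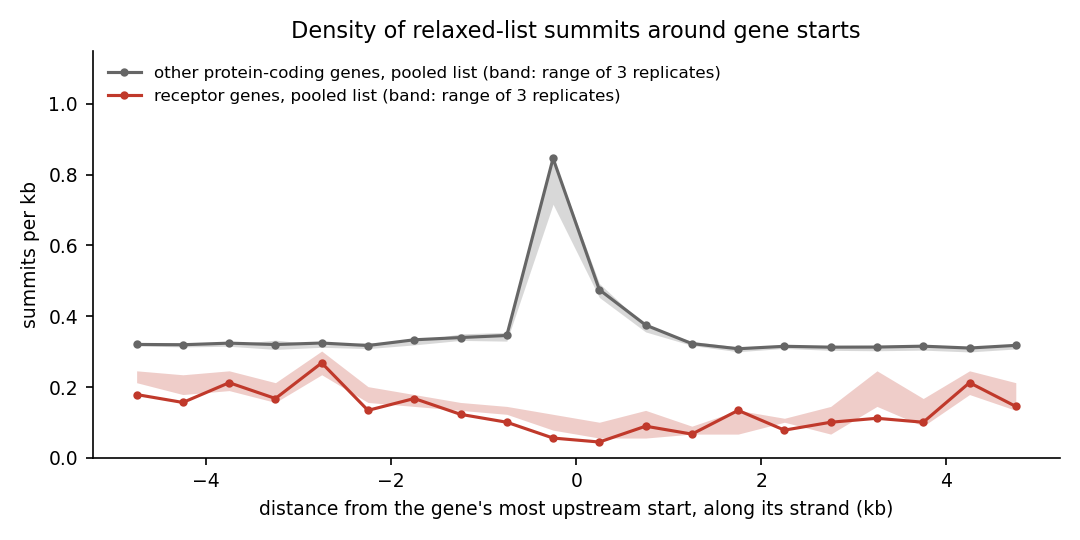
Summits per kb of the pooled list (lines) and the range over the 3 replicates (bands) in 500-bp bins within 5000 bp of the most upstream start of each gene, along its strand (x axis, kb), for receptor genes (red) and other protein-coding genes (grey). Other genes have a maximum of 0.846 per kb just upstream of the start, and receptors have no maximum there, with 0.0559 per kb.

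The nearest IDR summit to a receptor start was at a median of 19881 bp, against 8433 bp over all protein-coding genes. For 89 receptors (49.7%) it was over 20 kb away, against 29.6% of all genes, and of the Or genes 39 (66.1%) were that far. Within 1 kb of an IDR summit were 3 receptors (1.68%), against 21.6% of all genes. They were Ir60e at 275 bp, Or88a at 737 bp and Gr32a at 827 bp, the last a receptor for bitter compounds and pheromones. In the pooled list the median distance was 4364 bp for receptors and 365 bp for all genes, and the replicates gave 3709, 3072 and 3833 bp for receptors against 363, 476 and 423 bp.

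Inside receptor genes there was no IDR summit in 467 kb of gene body. That length includes the long gene Ir41a (2R 4917519 to 5021955), whose start lay 1056956 bp from the nearest IDR summit. Over the bodies of all protein-coding genes there were 0.0209 per kb (1877 in 89953 kb). An IDR summit in coding sequence was found for 0.229% of all genes, so that for coding sequence 0 of 179 receptors is near the background. The pooled list had 28 summits in the bodies of 23 receptor genes, 22 in coding exons, 4 in untranslated or other exons and 2 in introns. Coding sequence of receptors had 0.0824 pooled summits per kb (0.0874 ± 0.0303 in the replicates, SD, n = 3), and that of other genes 0.313 (0.302 ± 0.0528). A coding summit was found for 21 receptors (11.7%), against 34.7% of all genes. The highest-ranked summit in a receptor body was in a coding exon of Ir93a, a receptor of temperature and humidity sensing that works with Ir25a, named after its values were seen. It ranked 6059 in the pooled list and 13563, 13583 and 4510 in replicates 1, 2 and 3, and it lay 7948 bp from the start of the gene.

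Promoter sequence was compared in windows from 250 bp upstream to 50 bp downstream of each gene's 5′ end, on both strands. TATCGATA was found at 1 of 179 receptors (0.559%), Gr68a, and at 9.36% of all protein-coding genes. GGTCACACT, the element of the factor M1BP, was found at no receptor and at 6.05% of all genes. AAGTCA was present at 37 receptors (20.7%) and 16.2% of all genes, with 17 Ir, 11 Or and 9 Gr genes. AGGTCA, the more general nuclear receptor letters, was at 16 receptors (8.94%) and 5.88% of all genes, and TTAAAA at 78 (43.6%) and 53.4%. These shares are descriptions, with no test. They were lower than over all genes for the elements of DREF and M1BP and for TTAAAA, and not lower for AAGTCA and AGGTCA. The windows follow the annotated 5′ end, which was the initial coding base for 73.7% of receptors and 3.69% of all genes. The part of this placement in the shares was not tested.

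Within 50 bp of the 11 pooled summits at receptors, TTAAAA was in 2 windows (18.2%), and none of TATCGATA, GGTCACACT, AAGTCA or AGGTCA was found. Over all 9583 pooled promoter peaks the shares were 16.8% for TTAAAA, 3.37%, 1.75%, 4.29% and 1.92% for the others in that order. No match says only that these letters are not in the windows.

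Other gene groups were compared to see whether low counts were found in receptors alone. The shares over all protein-coding genes to set beside them are 19.1% in the IDR list and 54.2% in the pooled list. Odorant-binding protein genes, which encode secreted carriers of odorants, had 1 of 52 in the IDR list, Obp99b at rank 2023 with a signal of 108, and 10 (19.2%) in the pooled list. Obp99b's peak was its own, 270 bp from its start. The pickpocket channels had 0 of 29 and 6 (20.7%), the ionotropic glutamate receptors 0 of 13 and 2 (15.4%), and the CheA and CheB proteins 0 of 20 and 1. The Cpr genes, which encode structural proteins of the cuticle, had 0 of 70 and 10 (14.3%). Transcription and chromatin factors from work on sensory neuron identity had 2 of 18 (11.1%) in the IDR list and 9 (50%) in the pooled list. These were Alh, at rank 364 with a signal of 257 and found among the highest peaks of all 3 replicates, and Xbp1, at rank 752 with a signal of 185. All these groups but the transcription and chromatin factors thus also had IDR counts of 0 or 1, in small groups. In the pooled list the receptors, at 6.15%, were below each of these groups except the CheA and CheB genes, at 5%. No test of the differences between groups was run.

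Of the 3 members of the odorant receptor complex and its membrane partners outside the rule, Orco, Snmp1 and Snmp2, none had an IDR promoter peak and 1 had a pooled one. Receptor pseudogenes had no IDR or pooled promoter peak, and Ir60f had a summit in replicate 2 alone, at rank 12316, 485 bp from its start.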

How the data were processed

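The 5 deposited dm6 peak lists were used: the optimal IDR list, the pooled relaxed list and 3 replicate relaxed lists. The dm3 lists were not used, as no annotation of that build was at hand. The deposited signal of each peak was made by the authors and has no common scale between lists, so it served only to rank peaks within a list. The deposited −log10 q is printed beside some peaks and entered no comparison. For the aligner and the peak caller, names were not given in the sources used here. Chromatin was sheared to 200 to 800 bp, per the labels.

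Genes and transcript starts came from Ensembl release 115 (BDGP6.54), and sequence from the RefSeq copy of Release 6, arms 2L, 2R, 3L, 3R, 4 and X. Starts of transposable elements were not used. A tie in distance was counted as the gene's own peak. Coordinates are 1-based. Motifs and 31-mers were sought on both strands. Counts and shares are given with the same over all protein-coding genes, and no significance test was run. Depth is unknown.

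The text names each receptor with an IDR promoter peak and the gene nearer to it, up to 10 receptors with a pooled peak of their own, of which there were 7, the coreceptors Ir8a, Ir25a and Ir76b, and up to 3 members of each comparison list with an IDR peak. Other names were chosen after their values were seen. The members, lists and settings were chosen with earlier results of these data known. The counting was tested on simulated peaks. The tools were Python 3.11.15, numpy 2.4.6, pandas 2.3.3, scipy 1.17.1 and matplotlib 3.10.9. Alternatives were the window, the gene's 5′ end only, peak overlap in place of the summit, higher-signal peaks only, other rules for a nearer gene, and each replicate left out.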

Additional observations from a re-analysis of the deposited data

How the results depend on the processing

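No receptor had an IDR peak of its own in any of the 10 alternatives run for it, but not all of them could have changed this. The 250 bp window, the higher-signal peaks and each replicate left out can only remove calls, so 0 was fixed there in advance. The gene's 5′ end and the other rules for a nearer gene could change only Ir60e. The 1000 bp window and peak overlap could add receptors, and both gave 0. The count of receptors with an IDR promoter peak, 1 at 500 bp, was 0 at 250 bp, 3 at 1000 bp and 0 among the 1748 IDR peaks of highest signal, where all genes had 16.0%, 21.6% and 11.0%. It was 1 to 1 when each replicate was left out, where all genes had 12.5 to 14.2%. The pooled count of 11 was 6 at 250 bp, 22 at 1000 bp, 6 among the 15000 pooled peaks of highest signal and 2 to 3 when each replicate was left out. All genes then had 44.1%, 63.6%, 43.0% and 34.1 to 36.6%, so the receptor share was below that of all genes each time. The pooled count of own peaks, 7, was 14 at 1000 bp, 4 among the 15000 peaks and 0 to 1 when each replicate was left out. The shares of all genes with an own peak were then 53.9%, 34.9% and 26.7 to 28.9%. The mean over the replicate lists, 15.7, was 7.67 at 250 bp and 30 at 1000 bp, where the mean shares of all genes were 41.8% and 62.8%. The other alternatives stayed within 1.5 times the main counts. For the pooled counts, leaving out a replicate kept pooled peaks with summits within 150 bp in both other relaxed lists. For the IDR counts it kept IDR peaks with such summits among the 3496 highest-signal peaks of both other replicates. The causes of these shifts were not tested. No paired analysis was possible because there was 1 group of samples. Without read counts, the depth below which a receptor peak would be missed is unknown.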
